A study of Homo sapiens with 3 samples.

Results

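Transcribed unprocessed pseudogenes are copies of genes that arose by duplication of DNA, keep remnants of the exons and introns of the parent gene, and carry annotated evidence of transcription. They were chosen by biotype, as all genes that GENCODE v44 classes as transcribed_unprocessed_pseudogene, once the deposited transcripts had been joined to genes. Of 961 such genes in the annotation, 940 were listed in the deposited tables, out of 61193 genes in all, and 21 were not. The 2588 listed genes of the biotype unprocessed_pseudogene, which are copies without annotated transcription, served as the background. Of these, 174 are named after mitochondrial genes. RNA-seq was performed on HEK293T, a human cell line of embryonic kidney origin with the large T antigen of SV40, as 3 replicates of 1 condition without treatment, so no conditions were compared. Genomic DNA is named as the material in the labels, but total RNA in the methods of the study, from which QuantSeq 3′ mRNA-seq libraries were prepared. Oligo(dT) primes such libraries, so that reads fall near the 3′ end of a transcript. The counts summed to between 6262175 and 8521624 per library. In bulk samples, fewer cells that use a gene and less RNA per cell cannot be told apart. LIN28B, an RNA-binding protein gene of embryonic cells, had 1136, 1093 and 875 counts in replicates 1, 2 and 3 and PAX2, a transcription factor gene of the developing kidney, had 42, 59 and 54, while PTPRC (leukocytes) and ALB (hepatocytes) had 0 counts in every replicate. These 4 genes were chosen as a check of the cell line with the values known. The mitochondrial genome took 5.70% to 9.59% of the counts of replicates 1 and 2 and 25.8% of those of replicate 3. Counts of genes are therefore given per replicate, but not every result that rests on replicate 3 is marked. Among the unmarked ones are the counts of PMS2P1, TUBA5P and MTATP6P1, which were highest in replicate 3.

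An unprocessed pseudogene shares long stretches of sequence with its parent gene and with the other copies of a duplicated block. Many such copies lie in segmental duplications, where the same block occurs on one or several chromosomes. Reads of a pseudogene RNA can be assigned to it only where its sequence differs from all copies, and a program that skips ambiguous reads counts them only where no other annotated gene lies on the strand. A polyadenylated RNA normally ends shortly after a polyadenylation signal (AATAAA or ATTAAA), and a library primed with oligo(dT) reads the bases before that end.

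The 3′ ends of the annotated models are shown because the libraries read the 3′ ends of RNAs, although whether the RNAs end where the models do was not tested. The models of the 6 genes with the highest TPM (a level per length, defined with the values below) are given as their last 40 bases in GENCODE v44 in lower case, followed by the next 10 bases of the hg38 genome in capitals. None of these 6 models has a polyadenylation signal in its last 50 bases, but the letters AATAAA stand in the 10 bases after that of ZNF204P, and the models of BMS1P20 and PMS2P1 stop immediately before a GT, the dinucleotide with which introns begin.
ZNF204P (chr6:27358242-27358291, minus strand): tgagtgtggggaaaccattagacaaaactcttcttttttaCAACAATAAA
BMS1P20 (chr22:22310362-22310411, plus strand): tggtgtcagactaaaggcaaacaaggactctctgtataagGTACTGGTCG
LRRC37A16P (chr17:68125767-68125816, minus strand): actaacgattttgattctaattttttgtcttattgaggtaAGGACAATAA
PMS2P1 (chr7:100328826-100328875, minus strand): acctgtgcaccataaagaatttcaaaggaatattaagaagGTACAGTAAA
GBP1P1 (chr1:89426204-89426253, plus strand): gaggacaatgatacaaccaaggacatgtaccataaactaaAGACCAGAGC
ZNF602P (chr6:28116512-28116561, plus strand): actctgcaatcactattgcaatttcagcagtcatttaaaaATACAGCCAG
The deposited tables list ZNF204P, PMS2P1 and GBP1P1 in other versions, of 2397, 1228 and 1740 bases, than GENCODE v44, in which they have 1603, 537 and 1441 bases, so the ends printed for these genes may not be the ends that were counted. Of the 940 genes, 889 have the same version in both and 906 the same length.

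How far a pseudogene can be told from its parent is visible where both are set side by side. The last 75 bases of a model, which is the read length, were placed without gaps on the coding sequence of the canonical transcript of the parent, and capitals mark the bases that differ. BMS1 encodes a GTPase of ribosome assembly, PMS2 a protein of DNA mismatch repair, SMG1 a kinase of nonsense-mediated mRNA decay and PARG the enzyme that degrades poly(ADP-ribose).
BMS1P20 (chr22:22310327-22310401, plus strand): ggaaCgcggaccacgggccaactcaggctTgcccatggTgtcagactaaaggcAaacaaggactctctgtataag
BMS1: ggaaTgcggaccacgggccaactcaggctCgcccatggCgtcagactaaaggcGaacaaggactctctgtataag
PMS2P1 (chr7:100328836-100328910, minus strand): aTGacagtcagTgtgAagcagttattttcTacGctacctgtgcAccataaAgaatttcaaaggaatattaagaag
PMS2: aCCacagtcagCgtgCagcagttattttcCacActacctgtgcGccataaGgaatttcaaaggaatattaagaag
SMG1P2 (chr16:29527568-29527642, minus strand): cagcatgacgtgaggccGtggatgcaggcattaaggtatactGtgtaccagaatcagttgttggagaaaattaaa
SMG1: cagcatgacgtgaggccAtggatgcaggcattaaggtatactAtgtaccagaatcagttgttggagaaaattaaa
PARGP1 and PARG (chr10:45888165-45888239, minus strand, for PARGP1): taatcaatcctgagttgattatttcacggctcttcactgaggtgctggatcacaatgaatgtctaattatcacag
The ends differed at 4 of 75 bases for BMS1P20, at 8 for PMS2P1, at 2 for SMG1P2 and at 0 for PARGP1. A read from the end of PARGP1 therefore fits the coding sequence of PARG as well. All 4 of these models stop before a GT. Other detected members set beside a parent do not, namely GBP1P1, CCT6P3, DPY19L2P3, ANKRD20A8P, SHLD2P1 and ANKRD20A5P, so the GT is not shared by the set.

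A gene was called detected when it had over 3 counts in every replicate, where 3 is the upper limit for a gene with a count of 0. This limit covers counting error only, since no molecular identifiers are described that would tell independent molecules from PCR copies. Of the 940 transcribed unprocessed pseudogenes, 19 were detected (2.02%, 95% Wilson interval over genes 1.30% to 3.14%), compared with 50 of 2588 unprocessed pseudogenes (1.93%, 1.47% to 2.54%) and 12091 of all 61193 genes (19.8%). The intervals describe the genes listed, which are not independent replicates. In 847 genes no count was seen in any replicate, 44 had counts in 1 replicate, 18 in 2 and 31 in all 3. The 33 members on the Y chromosome included 0 detected genes and 1 gene with any count, beside 9 of 206 unprocessed pseudogenes on this chromosome with any count. Beside 2.02% of all members, 0 of 33 is not a result about this chromosome. The counts of all members together were 1782, 1632 and 2344, which is 0.0263% ± 0.00108 (SD, n = 3) of the counts of a library. Their summed TPM (a level per length, the count divided by the length of the transcript and rescaled to 1000000 per library) was 199, 212 and 177. Because the reads fall near the 3′ end, division by length need not give transcript abundance, and TPM can order genes otherwise than counts do. The unprocessed pseudogenes held 4178, 2931 and 27825 counts, of which MTATP6P1, a copy of a stretch of the mitochondrial genome on chromosome 1, took 1203, 473 and 23529. All counts of the members lay on transcripts of the pseudogene type, with the exception of 1 count in replicate 3. This follows from the annotation, since 939 of the 945 listed transcripts of members are of that type and 937 members have 1 listed transcript. The unprocessed pseudogenes with the highest TPM after MTATP6P1 were FRG1BP, with 197, 225 and 311 counts, MTND2P28, another mitochondrial copy, with 592, 266 and 816, and the genes without a symbol ENSG00000277998, with 80, 107 and 136, and ENSG00000263311, with 109, 135 and 126.

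Within each library, the share of genes with over 3 counts was 2.98%, 2.87% and 2.98% for the transcribed and 3.21%, 2.82% and 3.67% for the other unprocessed pseudogenes. The mean difference was -0.290 ± 0.376 percentage points (SD, n = 3, exact two-sided permutation test by sign flips, p = 0.5), where 3 libraries cannot give a p below 0.25. The direction of this difference changed with the genes admitted. Among the genes that overlap no exon of another gene on their strand, the mean shares over the libraries were 10.9% for 43 transcribed and 3.08% for 2464 other unprocessed pseudogenes (difference 7.77 ± 1.78 percentage points, SD, n = 3, exact p = 0.25), with the transcribed ones higher in 3 of 3 libraries. Of these 43 members, 4 had over 3 counts in every library, namely ZNF204P, PMS2P1, ZNF602P and SMG1P2, so the libraries repeat few genes. Every 75-base stretch of the last 300 bases of SMG1P2 also occurs elsewhere. ZNF204P and PMS2P1 were counted in other versions than those used for the overlap. The p-values measure only the spread between these replicates.

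Few genes carried most of the counts. ZNF204P, BMS1P20 and LRRC37A16P together held 74.5% ± 4.81 (SD, n = 3) of the counts of all members, and the 19 detected genes held 93.7% ± 1.23. Of the 74 members with a count that were not detected, none had more than 39 counts over the 3 libraries. The detected genes with the lowest summed counts were ANKRD20A5P with 6, 4 and 6 counts and SHLD2P1 with 7, 6 and 11. Just outside the limit lay SLC6A10P with 31, 1 and 7 counts, SMG1P7 with 11, 3 and 8, CCT6P1 with 3, 3 and 13, ZNF731P with 6, 2 and 8 and CEP170P1 with 7, 6 and 3.

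**Figure D1:**
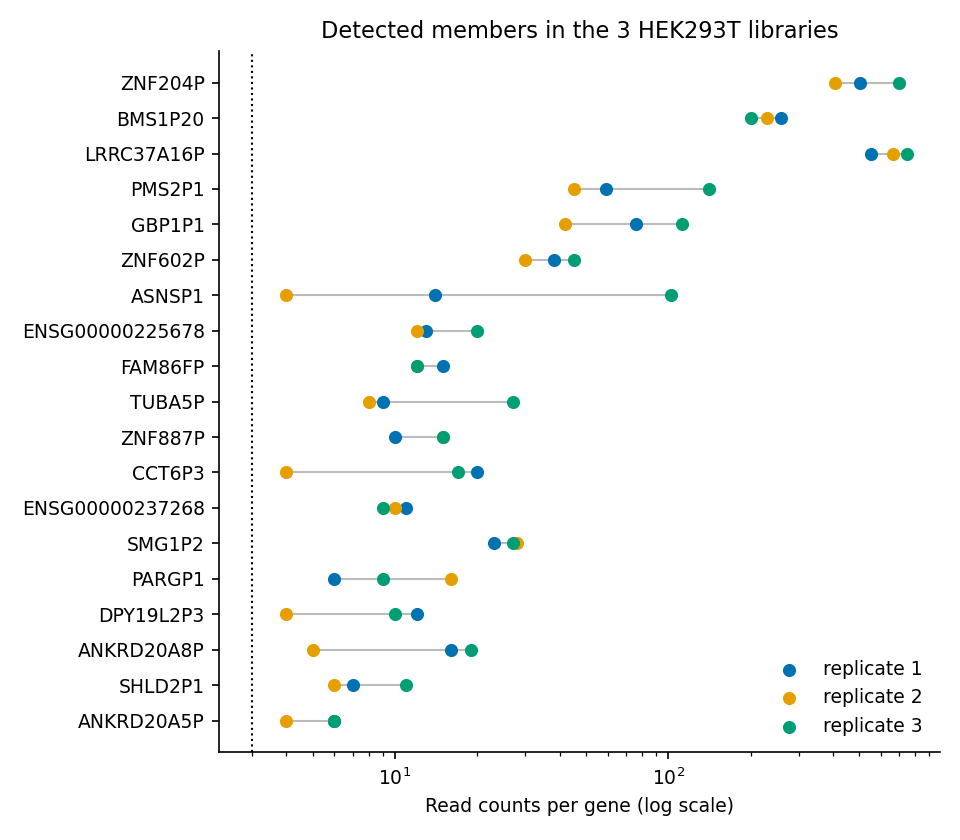
Read counts (log scale) of the 19 detected transcribed unprocessed pseudogenes in each of the 3 HEK293T libraries, ordered by mean TPM, with 1 point per replicate, a grey line over their range and a dotted line at 3 counts. The first 3 genes lie at 201 counts or more in every replicate, and ASNSP1 spans 4 to 102 counts.

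The 3 leading genes belong to different families. ZNF204P (ENSG00000204789), a copy of a zinc finger gene, is a single exon on the minus strand of chromosome 6 (27358252 to 27359854), and had 502, 408 and 699 counts, or 46.2, 44.4 and 43.7 TPM (mean 44.8 ± 1.25, SD, n = 3). BMS1P20 (ENSG00000272779), a partial copy of BMS1 with 8 exons on chromosome 22 from 22303224 to 22310401, had 259, 230 and 201 counts, or 50.9, 53.5 and 26.9 TPM (mean 43.8 ± 14.7). LRRC37A16P (ENSG00000267023), a copy of a gene of the leucine-rich repeat family LRRC37 with 15 exons on chromosome 17 from 68125777 to 68152468, had 552, 663 and 746 counts, or 32.7, 46.4 and 30.03 TPM (mean 36.4 ± 8.81). The replicates of these genes overlap, so their order by TPM is not fixed. Without division by length LRRC37A16P was the highest, with a mean of 90.7 counts per 1000000, above ZNF204P with 72.9 and BMS1P20 with 32.4. All 3 lay above every other member in each replicate.

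PMS2P1, GBP1P1 and ZNF602P followed. PMS2P1 (ENSG00000078319, chromosome 7, 100328836 to 100335860, minus strand) had 59, 45 and 141 counts, or 10.6, 9.56 and 17.2 TPM. GBP1P1 (ENSG00000225492, chromosome 1, 89410319 to 89426243), a copy of the gene of an interferon-induced guanylate-binding protein, had 76, 42 and 112 counts, or 9.63, 6.30 and 9.65 TPM. ZNF602P (ENSG00000219392, chromosome 6, 28115628 to 28116551), another zinc finger gene copy of a single exon, had 38, 30 and 45 counts, or 9.06, 8.47 and 7.30 TPM. The range of LRRC37A16P over the replicates lay wholly above that of PMS2P1. In TPM, PMS2P1 was above GBP1P1 within each replicate, but their ranges overlapped, as did those of GBP1P1 and ZNF602P. In counts, PMS2P1 was below GBP1P1 in replicate 1, with 59 against 76, and above it in replicates 2 and 3.

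The other 13 detected genes had means of 0.306 to 3.34 TPM. ASNSP1 (ENSG00000248498), a copy of the asparagine synthetase gene on chromosome 8, stood apart, since its 14, 4 and 102 counts differed more between replicates than those of any other detected member, and replicate 3 was highest. Its mean of 3.34 ± 3.97 TPM (SD, n = 3) was 1.06 TPM without replicate 3. PARGP1 had 6, 16 and 9 counts and a mean of 0.998 ± 0.717 TPM, which was 0.584 TPM without replicate 2. SMG1P2 on chromosome 16 had 23, 28 and 27 counts and CCT6P3, a copy of a chaperonin subunit gene on chromosome 7, had 20, 4 and 17. FAM86FP, from a family of methyltransferase gene copies, had 15, 12 and 12 counts, TUBA5P, an alpha-tubulin gene copy, had 9, 8 and 27, and ZNF887P, a zinc finger gene copy on chromosome 19, had 10, 15 and 15. DPY19L2P3 had 12, 4 and 10 counts, and ANKRD20A8P, of the ankyrin repeat family, had 16, 5 and 19. The genes without a symbol, ENSG00000225678 on chromosome 11 and ENSG00000237268 on chromosome 7, had 13, 12 and 20 counts and 11, 10 and 9 counts. Of neighbours among these 13 genes, SHLD2P1 and ANKRD20A5P were the pair whose TPM ranges did not overlap.

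By family, 13 groups of members were counted, which hold 242 of the 940 genes and 8 of the 19 detected ones. Zinc finger gene copies were detected in 3 of 23 (ZNF204P, ZNF602P and ZNF887P), beside 1.93% of unprocessed pseudogenes. Of 26 copies of PMS2, STAG3, GTF2I and other genes of families that are duplicated in the Williams-Beuren region of chromosome 7, PMS2P1 was detected, which itself lies elsewhere on the chromosome, and the next, STAG3L1, had 1, 0 and 4 counts. Of 17 copies of SMG1, NPIP, PKD1 and other genes of the duplicated blocks of chromosome 16, SMG1P2 was detected, as was LRRC37A16P among 37 copies of the GOLGA, HERC2 and LRRC37 families, where GOLGA2P8 followed with 0, 3 and 10 counts. Among 14 copies of the NBPF, SRGAP2, ankyrin repeat and related families, ANKRD20A8P and ANKRD20A5P were detected.

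The other groups had 0 detected genes. They are the 64 olfactory receptor copies, the 10 keratin copies, the 7 copies in the major histocompatibility complex, the 4 clustered protocadherin copies, the 8 subtelomeric copies, the 8 copies of the chromosome 22 repeats and the 9 copies of the chromosome 5 region around the SMN genes, all with 0 counts, and the 16 copies of drug and steroid metabolism genes, where CYP4F32P had 1, 2 and 0 counts. At this depth these copies were not detectable, which does not show their absence. The last 300 exonic bases of the median gene were covered throughout by other genes on the strand in 6 of these groups, which are described next.

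Almost every transcribed unprocessed pseudogene shared its locus with a second annotated gene. Exons of a lncRNA (long noncoding RNA) gene on the same strand overlapped those of 861 of the 940 members (91.6%), compared with 44 of 2588 unprocessed pseudogenes (1.70%), and covered a median of 83.9% of the exonic bases of a member. In 216 pairs the genes carried the same symbol. The 861 members were paired with 815 different lncRNA genes, of which 125 (15.3%) were detected, beside 12.9% of all 17557 lncRNA genes. These lncRNA genes held 11752, 10633 and 13230 counts, which is 9.76 ± 0.495 times (SD, n = 3) the counts of the pseudogenes paired with them. In 133 pairs only the lncRNA gene was detected, in 9 only the pseudogene and in 6 both. In all, the pseudogene or its lncRNA gene was detected for 152 of the 940 members (16.2%). A lncRNA gene that overlaps several members is counted for each of them, here and in the pairs.

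**Figure D2:**
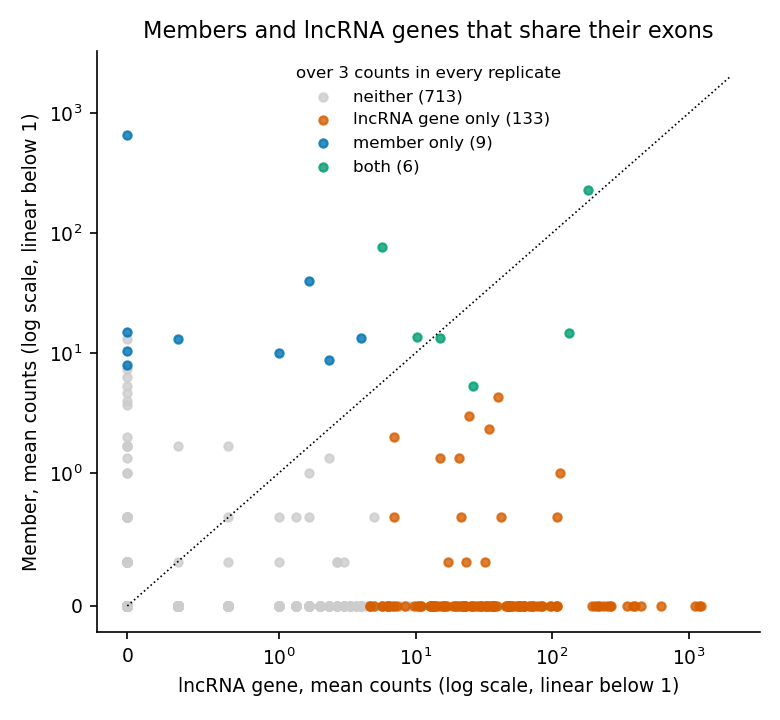
Mean counts over the 3 replicates of each transcribed unprocessed pseudogene and of the lncRNA gene that overlaps its exons on the same strand, 1 point per pair (861 pairs), both axes on a log scale that is linear below 1, with a dotted line where both are equal. The 133 pairs in which only the lncRNA gene was detected lie along the horizontal axis, most of them with 0 counts for the pseudogene.

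Examples among the lncRNA genes with the highest level, named after their values were seen, cover all or nearly all of the pseudogene. Other leading ones cover less, such as 44.8% of the exonic bases of PDCD6IPP2 and 9.91% of those of ENSG00000272710. Their counts need not come from shared exons. ENSG00000291136, which covers 99.8% of the exonic bases of RABGEF1P1 on chromosome 7, had 1140, 1053 and 1367 counts (288 ± 43.5 TPM, SD, n = 3), while RABGEF1P1 had 0 counts in every replicate. The lncRNA gene named MFSD14CP had 1319, 1243 and 1164 counts and covers 100% of the pseudogene of the same name, which had 0 counts. The same held for SVIL-AS1 (376, 307 and 384 counts on the lncRNA gene and 0 on the pseudogene) and for RRP7BP (584, 428 and 326 counts against 0). Of the 20 lncRNA genes with the highest TPM, the one whose pseudogene was itself detected was that of TUBA5P, with 9, 8 and 27 counts beside 129, 153 and 119 on ENSG00000291234.

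At other loci the counts lay on the pseudogene. The lncRNA gene over LRRC37A16P had 0 counts in every replicate, and so had those over PARGP1 and SHLD2P1. At BMS1P20 both were counted, with 216, 198 and 137 counts on ENSG00000286129. Only 40 of the 1121 exonic bases of BMS1P20 (3.57%) lie outside this lncRNA gene, in 1 run at the end of exon 4 (chr22:22307246-22307285, plus strand), and they are shown because they are the one stretch of the model that belongs to no other listed gene on the strand.
BMS1P20, end of exon 4: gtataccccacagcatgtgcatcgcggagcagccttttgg
From the deposited totals it cannot be seen whether the 690 counts of BMS1P20 lie there.

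The detected share differed between members with a covered and with a free 3′ end, without a steady order in between. Of 453 members whose last 300 exonic bases are covered throughout by other genes on the strand, 2 were detected (0.442%, Wilson 0.121% to 1.60%), namely BMS1P20 and ASNSP1. With up to 50% free, 5 of 211 were detected (2.37%), with 50% to under 100% free, 2 of 115 (1.74%), and with all 300 bases free, 10 of 161 (6.21%, 3.41% to 11.1%). For the unprocessed pseudogenes, 2504 of 2588 had a free 3′ end, and 46 of these were detected (1.84%, 1.38% to 2.44%). In the libraries taken singly, the shares with a free 3′ end and over 3 counts were 8.70%, 8.07% and 8.07% for the transcribed and 3.15%, 2.72% and 3.63% for the other unprocessed pseudogenes (difference 5.11 ± 0.590 percentage points, SD, n = 3, exact two-sided permutation test, p = 0.25, the smallest that 3 libraries allow). This restriction was chosen after seeing the data. None of the 310 members without an exonic base of their own was detected. How the counting program treated reads that fall on several genes is not given in the sources used here, and its part in these shares was not tested.

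**Figure D3:**
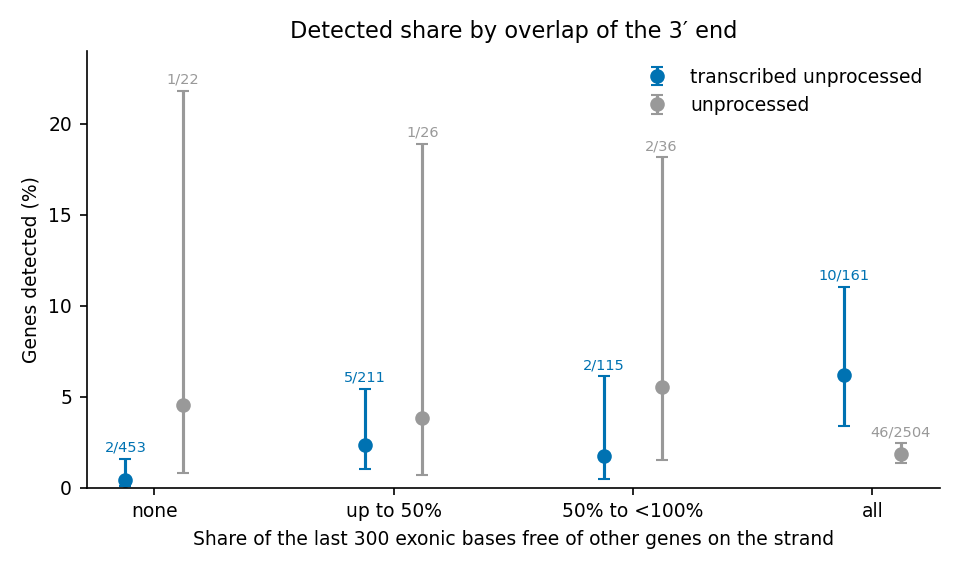
Percentage of genes with over 3 counts in every replicate, by the share of the last 300 exonic bases that no other listed gene covers on the strand, for transcribed unprocessed pseudogenes (blue) and unprocessed pseudogenes (grey), with 95% Wilson intervals over genes and the number detected of the number in each class. The members lie between 2 of 453 in the first and 10 of 161 in the last class, with overlapping intervals for the classes in between, while nearly all unprocessed pseudogenes fall in the last class, with 46 of 2504.

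Shared sequence was measured with 31-base words. A median of 45.6% of the words in the last 300 exonic bases of the detected members also occurred elsewhere in hg38, compared with 40.7% in the members not detected. With words of 75 bases, the read length, the medians were 5.75% and 2.98%. The detected members ranged from 0% (ZNF602P, ENSG00000225678 and TUBA5P) to 100% (SMG1P2), and SMG1P2 was at 100% with both word lengths, so its counts are uncertain. ZNF204P and LRRC37A16P had 4.07% and 9.63%, and 0% with 75-base words. BMS1P20 had 61.5% and PMS2P1 53.7%, which were 6.64% and 10.2% with 75-base words, whereas SHLD2P1 went from 88.5% to 72.1% and PARGP1 from 77.4% to 53.5%. Of 104 members with all words of the 3′ end present elsewhere, 1 was detected (0.962%, Wilson 0.170% to 5.25%), beside 3 of 322 unprocessed pseudogenes (0.932%) and 1.62% to 2.88% in the other classes of members, with overlapping intervals. Detected members were also longer than the others, with a median of 1740 bases and 8 exons compared with 902 bases and 4 exons, and their median identity to the best aligned protein-coding transcript was 93.2% compared with 89.2%.

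Each detected member was set beside its parent gene, the protein-coding gene that shares the most 31-base words with its 3′ end, or with the whole model or by alignment where the 3′ end shares none. The pseudogene had more TPM than this gene in every replicate in 14 of 19 cases, and less in every replicate in 4. In counts, without division by length, it was higher in every replicate in 12 cases, since ZNF204P (502, 408 and 699 counts) was below RBAK (723, 633 and 551) in replicates 1 and 2 and DPY19L2P3 was below DPY19L2, with 10 and 15 counts, in replicate 3. With the parent found by alignment it had more TPM in every replicate in 13 cases. Both alternatives were chosen after seeing the data. PMS2P1, with 59, 45 and 141 counts, had 1.90, 1.55 and 4.15 times the counts of PMS2, which had 31, 29 and 34 (1.56 ± 0.496 TPM, SD, n = 3). In TPM the ratios were 6.11, 4.91 and 17.2, and thus depend on the lengths, which for PMS2P1 differ between the deposited tables and GENCODE v44. In both measures the ratio was highest in replicate 3. GBP1 had 1, 2 and 7 counts and LRRC37A 1, 0 and 1, beside 42 to 112 counts on GBP1P1 and 552 to 746 on LRRC37A16P. BMS1P20, ASNSP1, PARGP1 and ZNF887P were lower than these parents, in TPM and in counts. BMS1 had 6007, 6072 and 3511 counts (148 ± 71.0 TPM), and BMS1P20 was at 0.298, 0.262 and 0.396 times its TPM but at 0.0431, 0.0379 and 0.0572 times its counts. ASNS had 60, 52 and 187 counts, highest in replicate 3, as was ASNSP1. PARG had 693, 588 and 586 counts (32.2 ± 9.09 TPM), and its sequence matches the end of PARGP1 printed above at every base. ZNF14, the zinc finger gene set beside ZNF887P, had 134, 127 and 190 counts (10.3 ± 0.821 TPM), but it shares only 0.741% of the words of the 3′ end, and the parent by alignment, ZNF844, had 0, 0 and 2 counts, below ZNF887P in every replicate. CCT6P3, with 3.19, 0.754 and 1.84 TPM, was above CCT6A, with 2.40, 3.47 and 1.57 TPM, in replicates 1 and 3 and below it in replicate 2.

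These comparisons have limits of measurement. The tables list counts per transcript. In 5 of the 14 cases, GBP1, LRRC37A and SHLD2 among them, under 5% of the last 300 exonic bases of the parent lie in only 1 listed transcript, and in 9 cases, PMS2 among them, all of these bases do. Outside these 14 cases, this share was 0% for CCT6A and PARG, 3.67% for ASNS and 100% for BMS1 and ZNF14. The effect on the counts of these parents was not tested, so low counts on CCT6A or ASNS need not mean a low level of the gene. The parents MMP1, FAM86B1, POTED and NPIPB3 had 0 counts in every replicate, so no ratio is given for their copies. The parent found by alignment was the same gene in 12 of 19 cases. Some of the 14 pairs share little sequence. ZNF594 and MMP1 share 0% of the words of ZNF602P and ENSG00000225678, at identities of 67.4% and 77.1%. TUBA3D shares 0% of the words of the 3′ end of TUBA5P, and LRRC37A 4.44% of those of LRRC37A16P. For LRRC37A16P the alignment led to LRRC37A3, with 8, 7 and 25 counts, at an identity of 80.4%. For SMG1P2 the words led to NPIPB3 and the alignment to SMG1, which had 841, 725 and 785 counts (11.4 ± 3.06 TPM) and was above SMG1P2 in every replicate. The direction also turned for ENSG00000237268, where the alignment led to ANKRD26, with 124, 106 and 154 counts (15.96 ± 2.43 TPM), in place of POTED, which shares 0.629% of its words. For ZNF204P the words led to RBAK and the alignment to ZNF850, at an identity of 67.4%, so a parent is not resolved for this gene.

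**Figure D4:**
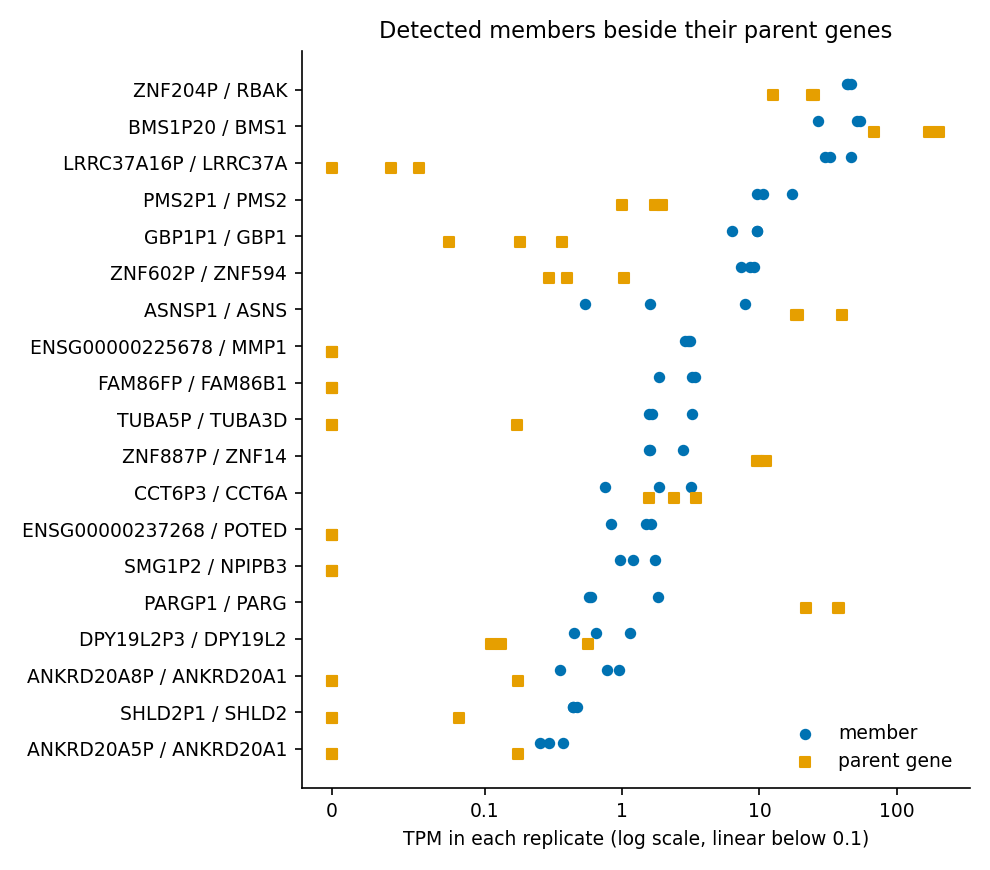
TPM in each of the 3 replicates (log scale, linear below 0.1) of the 19 detected members (blue circles) and of their parent genes (orange squares), with the name of the pseudogene before and that of the parent after the slash. The pseudogene lies to the right of its parent in all replicates for 14 genes, and to the left for BMS1P20, ASNSP1, ZNF887P and PARGP1.

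Polyadenylation signals were searched for as AATAAA or ATTAAA in the last 50 bases of each model, on the strand of the model. Of the 940 members, 52 (5.53%, Wilson 4.24% to 7.18%) held one, close to the 149 of 2588 unprocessed pseudogenes (5.76%) and compared with 15473 of 19926 canonical transcripts of protein-coding genes (77.7%). Among the detected members the count was 4 of 19 (21.1%, 8.51% to 43.3%), and among the members not detected 48 of 921 (5.21%). Of the 50 detected unprocessed pseudogenes, 4 held a signal (8%, Wilson 3.15% to 18.8%), with an interval that overlaps that of the detected members. The lncRNA genes that overlap members held a signal in 350 of 815 models (42.9%), and in 74 of the 125 detected ones (59.2%). A GT followed the last base of 237 members (25.2%) and of 380 unprocessed pseudogenes (14.7%). It followed 4 of 19 detected members (21.1%, Wilson 8.51% to 43.3%) and 233 of 921 members not detected (25.3%, 22.6% to 28.2%), with overlapping intervals. Besides ASNSP1, the 3 detected members with a signal are shown with their last 50 bases and the signal in capitals.
SMG1P2 (chr16:29527568-29527617, minus strand): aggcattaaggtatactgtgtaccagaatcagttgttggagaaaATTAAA
DPY19L2P3 (chr7:29742545-29742594, plus strand): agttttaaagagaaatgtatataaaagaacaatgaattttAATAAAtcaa
SHLD2P1 (chr10:46610474-46610523, minus strand): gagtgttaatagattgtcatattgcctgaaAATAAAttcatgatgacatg
The signal of SHLD2P1 ends 14 bases and that of DPY19L2P3 4 bases before the end of the model, while that of SMG1P2 is the last 6 bases of an exon that a GT follows. A match of these letters is not a site that was shown to be used.

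**Figure D5:**
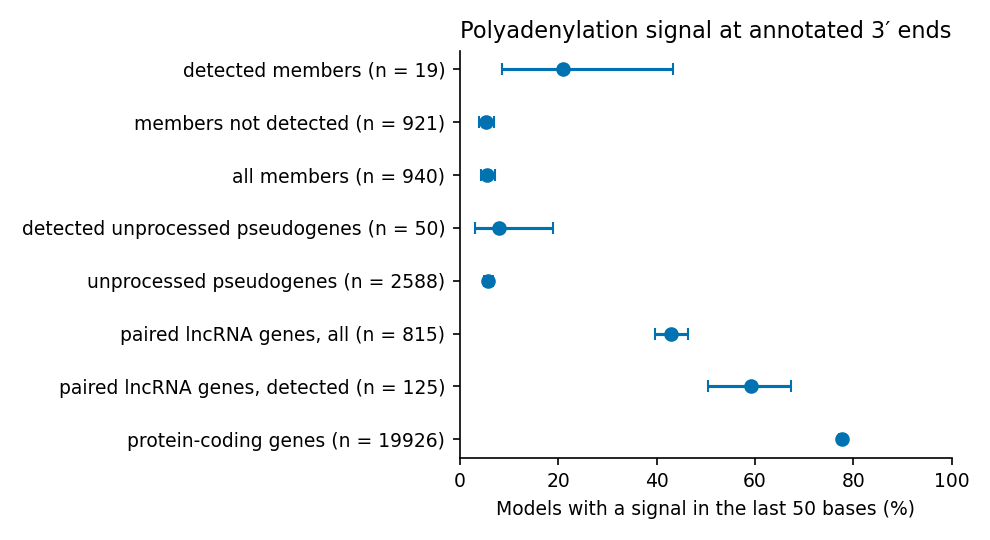
Percentage of models with AATAAA or ATTAAA in their last 50 bases, with 95% Wilson intervals over genes and the number of genes in brackets. Members and unprocessed pseudogenes lie at 5.21% to 21.1%, the overlapping lncRNA genes at 42.9% and 59.2% and protein-coding genes at 77.7%.

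Since the study concerns i-motifs (iMs), which form where 4 tracts of Cs lie close together, and G-quadruplexes (G4s), their counterparts on G-rich strands, the promoters were searched for 4 tracts of at least 3 Cs or 3 Gs with loops of 0 to 7 bases, on both strands, within 1000 bases on each side of the gene start. Such tracts were present at 419 of 940 members (44.6%, Wilson 41.4% to 47.8%), at 770 of 2588 unprocessed pseudogenes (29.8%, 28.02% to 31.5%), at 43.8% of all 61193 genes and at 68.3% of protein-coding genes. The median GC content of the windows was 47.6% for the members and 43.4% for the unprocessed pseudogenes. They were present at 8 of 19 detected members (42.1%, 23.1% to 63.7%), BMS1P20 and LRRC37A16P among them, and at 411 of 921 members not detected (44.6%, 41.4% to 47.9%), with overlapping intervals. ZNF204P, PMS2P1, GBP1P1 and ZNF602P had none. A match of letters does not show that an iM or a G4 folds there.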

How the data were processed

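QuantSeq 3′ mRNA-seq of HEK293T was analysed in 3 replicates, which were not paired with any other group. Per the labels and the submitters' processing notes, reads were trimmed with Trimmomatic 0.38.0, aligned to hg38 with HISAT2 2.2.1 and counted with featureCounts, listed as version 2.2.1, and its settings for reads that overlap several features or map to several places are not given in the sources used here. The raw read count per transcript was deposited by the authors, beside the length in bases and the TPM that the authors computed from the count and that length. Of 247541 listed transcripts, 223558 were matched to GENCODE v44 after removal of version numbers, and the others held 0.158% to 0.166% of the counts. Count and TPM were summed per gene. A gene was detected with over 3 counts in every replicate, and no other filter or pseudocount was used.

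Exon overlap, shared words of 31 and 75 bases, alignments (BLAST 2.17.0, E-value limit 1e-10) and motifs were computed from GENCODE v44 and hg38 with Python 3.11.15, numpy 2.4.6, numba 0.67.0, pandas 2.3.3 and scipy 1.17.1, and the code was tested on simulated data. The members and lists were chosen with earlier results of these data known. The rule for named genes was the 20 detected members with the highest mean TPM, of which 19 exist, their parents, up to 2 members of each family group and 5 unprocessed pseudogenes. The alternatives were other detection limits, leaving out each replicate, counts scaled to the library total, exclusion of mitochondrial genes, longer words, other motif windows and, chosen after seeing the data, parents by alignment and parents compared in counts. The methods of the study describe the replicates as independent and biological. The sequences were read from hg38 by GENCODE v44 coordinates.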

Additional observations from a re-analysis of the deposited data

How the results depend on the processing

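The count of 19 detected members depended on the limit. It was 31 with at least 1 count in every replicate, 10 with at least 10 counts and 93 with a mean TPM above 0, and it ranged from 19 to 22 when 1 replicate was left out. Of the 43 members that overlap no exon on their strand, 4 were detected. With the member or its lncRNA gene, an alternative chosen after seeing the data, the count was 152. The difference to the unprocessed pseudogenes, -0.290 percentage points, changed sign with at least 10 counts (0.0664), with genes that share under 50% of their words (0.540), with genes free of overlap (7.77) and, chosen after seeing the data, with a free 3′ end (5.11). It kept its sign without each replicate, but was -0.0884 ± 0.198 without replicate 3, so its size rests in part on that library. Without the unprocessed pseudogenes named after mitochondrial genes, also chosen after seeing the data, it was -0.150 ± 0.352. It was larger with at least 1 count (-2.03 ± 0.713, exact permutation p = 0.25) and with a TPM of at least 1 (-1.42 ± 0.271, exact permutation p = 0.25). With mitochondrial genes left out, the members held 0.0309% of counts and 0.0275% of TPM, and the summed level of the 19 members, 175 TPM, was 246.1, while in counts scaled to 1000000 per library it was 247.7. With 75-base words the median share found elsewhere was 5.75%, and 5 of the 6 members that then had a parent were above it. AATAAA alone was present in 24 members and either signal in the last 100 bases in 87, compared with 52. The cause of these changes was not tested. No paired analysis was possible because all replicates belong to one condition. With 3 libraries, a count of 0 allows up to 3 counts in each, and genes under this limit were not detectable at this depth.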
